A study of Homo sapiens with 12 samples.

Results

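Mucins and carcinoembryonic antigen-related cell adhesion molecules (CEACAMs) are glycoproteins that epithelial cells place on their surface or secrete. The genes described are MUC1, MUC4, MUC5AC, MUC5B, MUC13, MUC16, MUC20, CEACAM1, CEACAM5 and CEACAM6, and every non-control probe that carries any of these 10 names on the array was taken, which gave 18 of 50599 probes on the array. RNA came from 3 human lung adenocarcinoma cell lines: A549, PC14, and PC14CDDP, a cisplatin-resistant line derived from PC14. Each line was transfected at 25 nM with premiR-197 (a synthetic precursor of miR-197), with AllStar-NC (its negative control), with LNA-miR-197 (a locked nucleic acid oligonucleotide against miR-197) or with LNA-miR-NC (the control of the latter), and each culture was measured on 1 Agilent array with 60-base probes, 12 arrays in all. All cells, the controls included, had been transfected, no untransfected culture is used here, and PC14CDDP is a single resistant line. No transfection was repeated within a line. The 4 arrays of a line therefore served as its replicates in comparisons of lines and the 3 lines as replicates in comparisons of transfections. The p-values of line comparisons rest on what line and transfection terms leave unexplained over the 12 arrays. Neither the spread between repeated cultures of the same transfection nor that between independent resistant lines was measured.

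Transmembrane mucins such as MUC1, MUC4, MUC13 and MUC16 carry a long extracellular part made of repeated, heavily O-glycosylated sequence above a membrane anchor. Gel-forming mucins such as MUC5AC and MUC5B are secreted and make up airway mucus. CEACAM5, known as carcinoembryonic antigen, and CEACAM6 are held in the membrane by a lipid anchor, whereas CEACAM1 spans the membrane and is known as an inhibitory receptor on lymphocytes as well as an epithelial adhesion molecule.

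The share of all probes well above background, a flag of the scanner software, was 55.8% to 63.1% per array. The arrays of A549 lay on another slide than those of PC14 and PC14CDDP, so that slide and line cannot be told apart where A549 is compared, and each transfection held the same slide column in every line. On their shared slide, PC14 held row 1 and PC14CDDP row 2, so that row and line cannot be told apart between them. Of the epithelial markers, KRT7, KRT8, KRT18 and KRT19 were well above background on all 12 arrays. EPCAM and CDH1 were well above background on 4 arrays of A549, on 3 and 2 arrays of PC14 and on 0 of PC14CDDP. In PC14CDDP, 4 of the 6 epithelial markers were thus detected on every array and 2 on none. Of 4 lung adenocarcinoma markers, NAPSA and SFTPC were well above background on all 12 arrays and higher in A549 than in PC14 (log2 differences 1.61 and 0.52), NKX2-1 was so on the arrays of PC14 and PC14CDDP and on 0 of 4 arrays of A549, and SFTPB on 0 of 12.

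The 18 probes differed in what they could show. For a test, a minimum of 3 arrays with signal well above background was set, which 14 probes of 7 genes reached. The CEACAM5 probe was well above background on 0 of 12 arrays, each of the MUC16 probes on 1 and the MUC20 probe on 2, so these 3 genes were not tested. Against PC14, 7 of the 14 probes differed in PC14CDDP (6 higher and 1 lower, limma, adjusted p under 0.05), where 48.8% of all 33712 probes tested did. In A549 against PC14, 8 differed (7 higher and 1 lower), where 67.4% of all probes did, and in A549 against PC14CDDP 10 differed (6 higher and 4 lower), where 70% did. MUC13, CEACAM6 and MUC5B reached the minimum only through arrays of A549, and MUC4 A_24_P208825 only through arrays of PC14 and PC14CDDP. CEACAM1 A_33_P3268507 reached it without an array of PC14. The filter favoured these lines for those probes, so their calls against a line without such arrays add no support beyond detection. The share of mucin and CEACAM probes that differed between lines was near the share of all probes. In the same order, the median log2 difference over the 14 probes was 0.41, 0.66 and 0.18, beside 0.06, 0.06 and 0.02 over all probes. The 0.41 of PC14CDDP against PC14 includes MUC13 (0.43), CEACAM6 (0.58) and MUC5B (0.24), which were below background on every array of both lines. It also counts 2 MUC4 probes that overlap. The medians are therefore not read as a shift of these genes. Lower signal of an RNA in a culture could reflect fewer cells that carry it or less of it per cell, which cannot be told apart here.

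**Figure D1:**
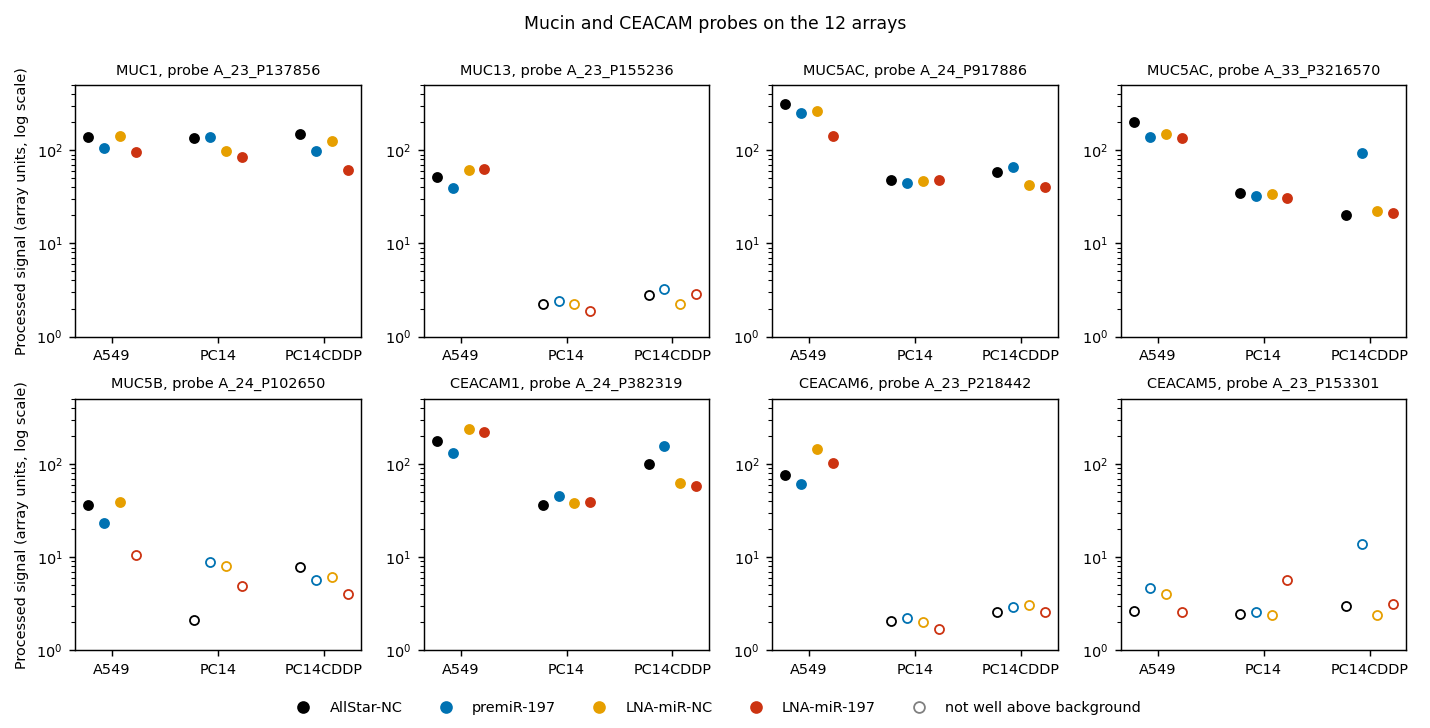
Processed signal in array units on a log axis of 8 mucin and CEACAM probes, with a point for each of the 12 arrays, grouped by line and coloured by transfection. Open points were not well above background. CEACAM6 and MUC13 were well above background on the 4 arrays of A549 and on 0 arrays of PC14 and PC14CDDP, and CEACAM1 was lowest in PC14.

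Among the transmembrane mucins, MUC4 gave opposite answers on different probes of the same gene, and the arrays do not settle which of the probes follows MUC4 mRNA. Its 4 probes are shown because the finding turns on where they lie in the transcript, and the capitals mark the longest stretch that 3 of them share. All lie on chromosome 3 of hg19, which has MUC4 on its minus strand: A_24_P239176 at chr3:195514760-195514819, A_24_P239177 at chr3:195514780-195514839, A_33_P3417281 at chr3:195506310-195506369 and A_24_P208825 at chr3:195474164-195474223. The sequences are those of the scanner files.
A_24_P239176: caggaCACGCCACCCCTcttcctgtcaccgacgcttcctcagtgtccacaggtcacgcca
A_24_P239177: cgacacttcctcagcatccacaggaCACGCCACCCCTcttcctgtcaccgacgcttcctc
A_33_P3417281: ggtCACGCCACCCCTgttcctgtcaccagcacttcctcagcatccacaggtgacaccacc
A_24_P208825: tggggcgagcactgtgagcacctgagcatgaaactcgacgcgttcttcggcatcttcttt

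The first 3 start at bases 4411, 4391 and 12237 of the annotated transcript and the last at base 16218, near its 3′ end. The first 3 lie in the tandem repeat that makes up most of the extracellular part of MUC4. Each of them matched itself after a shift of 48 bases, over the 12 bases that remain, at 91.7%, 91.7% and 83.3% of positions. A_24_P239176 and A_24_P239177 share 40 bases and are not independent measurements. The 3′ probe shares no stretch over 6 bases with the other 3, and the 12 bases in capitals occur in no other probe on the array.

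On the 3′ probe the signal was highest in PC14. The signals in PC14 were 173.2 after premiR-197, 203.3 after AllStar-NC, 203.3 after LNA-miR-197 and 244.0 after LNA-miR-NC. In PC14CDDP they were 26.9, 34.3, 13.6 and 38.8 in the same order, and in A549 2.0 to 2.8, with 0 of 4 arrays well above background. The 3 lines did not overlap. The log2 difference of PC14CDDP from PC14 was -2.86 (SE 0.21, adjusted p = 1.87e-05). A549 was at least 20.6-fold lower than PC14 and at least 2.84-fold lower than PC14CDDP, where the bound replaces each A549 value by the lowest signal that counted as well above background on that array. The limma adjusted p of these fits, 6.16e-08 and 1.34e-06, add no support beyond detection, since the probe was tested through the other lines alone. Under normexp background correction the fitted log2 differences were -2.11 and -0.56, which are smaller than these bounds.

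On each of the 3 repeat probes the signal was instead higher in PC14CDDP than in PC14. The signals of A_24_P239176 were 3431.9 to 3834.1 in A549, 3435.4 to 4050.4 in PC14 and 5029.1 to 6478.5 in PC14CDDP. All 4 PC14CDDP arrays lay above all 8 others, and the log2 difference from PC14 was 0.72 (SE 0.08, adjusted p = 0.000196). The overlapping probe A_24_P239177 gave 0.74 and A_33_P3417281 gave 0.57, with adjusted p of 0.000262 and 0.0041. A_33_P3417281 had its highest mean in A549, with 819.2 to 921.8 units there, 617.0 to 918.6 in PC14CDDP and 475.2 to 581.1 in PC14, which lay below both other lines. A549, which had no signal above background on the 3′ probe, differed from PC14 on A_24_P239176 by 0.01 (SE 0.08, adjusted p = 0.905) and was higher by 0.77 on A_33_P3417281 (adjusted p = 0.000491). The opposite direction of the 3′ probe and the repeat probes in PC14CDDP against PC14 held under each alternative in which those probes were tested, and under normexp background correction the 3′ difference was smaller, at -1.55.

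**Figure D2:**
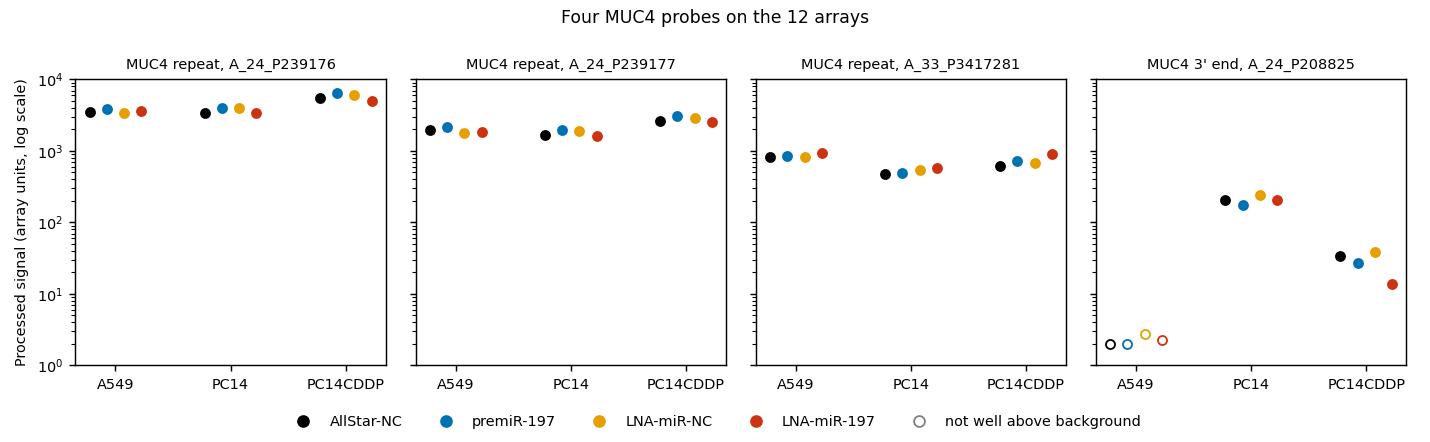
Processed signal in array units on a log axis of the 4 MUC4 probes on the 12 arrays, grouped by line and coloured by transfection, with open points not well above background. The repeat probes stay within 3431.9 to 6478.5 units (A_24_P239176), 1645.1 to 3090.8 units (A_24_P239177) or 475.2 to 921.8 units (A_33_P3417281) in every line, whereas the 3′ probe falls from PC14 to PC14CDDP to A549.

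MUC1, a transmembrane mucin of most glandular epithelia, was measured in every line. On A_23_P137856 the signals after premiR-197, AllStar-NC, LNA-miR-197 and LNA-miR-NC were 106.7, 138.2, 94.9 and 141.8 in A549. They were 138.3, 137.0, 85.6 and 97.6 in PC14 and 98.0, 148.2, 61.3 and 126.1 in PC14CDDP. The lines overlapped, and the log2 differences between them were 0.14 (A549 minus PC14), -0.03 (PC14CDDP minus PC14) and 0.17 (A549 minus PC14CDDP), each with an SE of 0.16 and adjusted p of 0.464, 0.894 and 0.371. The second probe, A_33_P3332215, which lies nearer the 5′ end of another MUC1 transcript, had 15.3 to 22.6 units in A549 and 23.6 to 37.1 in PC14CDDP. These did not overlap, and A549 was lower by 0.67 on the log2 scale (log2 difference -0.67, SE 0.16, adjusted p = 0.00592).

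MUC13, a transmembrane mucin best known from the gut, was measured above background in A549 alone. Its signals there were 39.5 after premiR-197, 51.7 after AllStar-NC, 63.1 after LNA-miR-197 and 61.4 after LNA-miR-NC, against 1.9 to 3.3 on the 8 arrays of PC14 and PC14CDDP, of which 0 were well above background. A549 was at least 6.12-fold higher than PC14 and at least 4.55-fold higher than PC14CDDP, while normexp background correction gave smaller log2 differences of 1.04 and 0.86. The limma adjusted p of these fits, 1.49e-07 and 2.16e-07, add no support beyond detection, since only arrays of A549 let the probe be tested. MUC16, the CA125 antigen, and MUC20, which has close pseudogene copies so that its signal is uncertain, were near background on most arrays. The signals were 1.8 to 13.5 on A_23_P5211 and 1.8 to 13.7 on A_33_P3313110 for MUC16. For MUC20 they were 35.1 in A549 after LNA-miR-NC and 12.6 in A549 after AllStar-NC, both well above background, and at most 9.8 elsewhere.

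The gel-forming mucin MUC5AC, the main goblet cell mucin of the airway surface, was higher in A549 on 2 of its 3 probes. A pair of them is shown because they disagree. A_33_P3216568 lies at chr11:1161827-1161886 of hg19 by the files, A_33_P3216570 has no coordinates there, and the accessions of the 3 MUC5AC probes were not found in the RefSeq table used, so the gene name is that of the array design.
A_33_P3216570: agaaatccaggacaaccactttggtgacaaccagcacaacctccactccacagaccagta
A_33_P3216568: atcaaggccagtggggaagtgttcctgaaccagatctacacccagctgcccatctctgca

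On A_24_P917886 the A549 signals were 253.5 after premiR-197, 317.9 after AllStar-NC, 143.3 after LNA-miR-197 and 265.8 after LNA-miR-NC, above the 39.9 to 65.6 units of the 8 other arrays. The log2 difference was 2.39 from PC14 and 2.18 from PC14CDDP (SE 0.20, adjusted p = 1.17e-05 and 1.7e-05). On A_33_P3216570 A549 had 134.2 to 200.5 units and PC14 30.7 to 35.0. PC14CDDP had 20.4 after AllStar-NC, 21.2 after LNA-miR-197 and 22.3 after LNA-miR-NC but 94.3 after premiR-197, so that a single array of that line stood apart. A549 was higher than PC14 by 2.27 and than PC14CDDP by 2.27 on the log2 scale (SE 0.39, adjusted p = 0.000932 and 0.000834). On the third probe, A_33_P3216568, the lines overlapped at 9.0 to 23.9 units, 9 of 12 arrays were well above background, and A549 minus PC14 was 0.28 (SE 0.20, adjusted p = 0.231). Under normexp background correction the difference of A549 from PC14 was smaller, 1.64 on A_24_P917886 and 1.14 on A_33_P3216570, and both stayed past the threshold.

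MUC5B, the gel-forming mucin of the submucosal glands, was well above background on 3 of 12 arrays, all of A549: 23.3 units after premiR-197, 36.6 after AllStar-NC and 39.0 after LNA-miR-NC. The fourth array of A549, after LNA-miR-197, gave 10.65 and the arrays of PC14 and PC14CDDP 2.1 to 8.9. A549 was at least 2.81-fold higher than PC14 and at least 2.09-fold higher than PC14CDDP, with 3 of 4 A549 arrays measured. The limma adjusted p of these fits, 0.00256 and 0.00433, add no support beyond detection, since only arrays of A549 let the probe be tested. The fitted log2 difference from PC14 was 2.28, against 1.67 without the AllStar-NC arrays and 0.55 under normexp background correction.

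The CEACAM genes divided by line too. CEACAM6 was read at 61.8 units after premiR-197, 76.3 after AllStar-NC, 101.9 after LNA-miR-197 and 144.4 after LNA-miR-NC in A549, and at 1.7 to 3.1 on the other 8 arrays, of which 0 were well above background. A549 was at least 10.5-fold higher than PC14 and at least 7.83-fold higher than PC14CDDP, while normexp background correction gave smaller log2 differences of 1.54 and 1.39. The limma adjusted p of these fits, 1.07e-07 and 1.71e-07, add no support beyond detection, since only arrays of A549 let the probe be tested. The fit also called CEACAM6 between PC14CDDP and PC14 (adjusted p = 0.0392), but both lines were below background, no fold is given, and the call was lost under 7 of the alternatives run. CEACAM5 gave 2.4 to 5.7 units on 11 arrays and 13.97 in PC14CDDP after premiR-197, and 0 of these were well above background.

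CEACAM1 was measured on all 12 arrays by A_24_P382319 (hg19 chr19:43011504-43011563). Its signals after premiR-197, AllStar-NC, LNA-miR-197 and LNA-miR-NC were 130.2, 175.6, 222.8 and 235.4 in A549. They were 45.6, 36.3, 39.5 and 38.1 in PC14 and 155.9, 100.9, 58.2 and 62.2 in PC14CDDP. PC14 lay below both other lines on every array, while A549 and PC14CDDP overlapped on 1 array each. CEACAM1 was higher than in PC14 by 2.28 on the log2 scale in A549 (SE 0.29, adjusted p = 0.000164) and by 1.22 in PC14CDDP (SE 0.29, adjusted p = 0.00835), and it was higher in A549 than in PC14CDDP by 1.06 (adjusted p = 0.0107). The call in PC14CDDP against PC14 was lost without the AllStar-NC arrays (adjusted p = 0.056), and that in A549 against PC14CDDP without the LNA-miR-197 or the LNA-miR-NC arrays (adjusted p = 0.0717 and 0.0701). Normexp background correction reduced the difference of A549 from PC14 to 1.27. A second CEACAM1 probe, A_33_P3268507, was well above background on 2 arrays of PC14CDDP, 1 of A549 and 0 of PC14. Its fitted log2 difference of PC14CDDP from PC14 was 0.92, and normexp background correction reduced it to 0.27. The limma adjusted p of this fit, 0.00821, adds no support beyond detection, since no array of PC14 let the probe be tested. No lower bound of the fold is given, since only 2 PC14CDDP arrays were well above background.

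The start sites of the 3 CEACAM genes are related in sequence, and the 120 bases before each are shown because CEACAM6 and CEACAM1 were both higher in A549 than in PC14 while CEACAM5 was not detected. They were taken from RefSeq on GRCh38.p14, written on the strand of the gene: CEACAM5 chr19:41708506-41708625 on the plus strand, CEACAM6 chr19:41755410-41755529 on the plus strand and CEACAM1 chr19:42528482-42528601 on the minus strand. Capitals mark CACGTG, an E-box, which reads the same on both strands.
CEACAM5: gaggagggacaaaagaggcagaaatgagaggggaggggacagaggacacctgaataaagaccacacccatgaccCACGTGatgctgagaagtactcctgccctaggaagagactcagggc
CEACAM6: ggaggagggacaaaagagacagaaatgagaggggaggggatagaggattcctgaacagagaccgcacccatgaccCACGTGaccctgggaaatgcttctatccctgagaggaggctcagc
CEACAM1: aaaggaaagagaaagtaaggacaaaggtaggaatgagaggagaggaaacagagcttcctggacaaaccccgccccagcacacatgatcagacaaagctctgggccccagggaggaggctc

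Over these 120 bases CEACAM5 and CEACAM6 were identical at 82.0% of aligned positions, CEACAM6 and CEACAM1 at 64.3% and CEACAM5 and CEACAM1 at 61.5%. The hexamer begins 46 bases before the start of CEACAM5 and 45 bases before that of CEACAM6, and the 300-base window of CEACAM1 does not hold it. Of all 35116 promoter windows of 300 bases, 7.3% hold it, and 3.9% hold it within these 120 bases. Whether the hexamer bears on the signal of these genes was not tested.

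The transfections addressed whether raising or blocking miR-197 changed these genes. The mature strand of the miRNA (hsa-miR-197-3p, RefSeq, GRCh38.p14 chr1:109598940-109598961 on the plus strand) is given with its seed, bases 2 to 8, in capitals.
hsa-miR-197-3p: uUCACCACcuucuccacccagc

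No mucin or CEACAM probe passed the threshold in any transfection comparison. After premiR-197 against AllStar-NC 0 of 14 probes were called by limma (1 at an unadjusted p under 0.05), where 0.0504% of all probes were. After LNA-miR-197 against LNA-miR-NC 0 were called (3 unadjusted), where 7.91% of all probes were, and in LNA-miR-NC against AllStar-NC 0 were called (1 unadjusted), where 0.481% were. The 3 after LNA-miR-197 were MUC1 A_23_P137856 and the MUC4 3′ probe, both lower, and MUC5AC A_33_P3216568, which was higher. The difference between the premiR-197 and the LNA-miR-197 effect gave 0 calls (0 unadjusted), where 0.0475% of all probes were called. The methods' t-test, run here paired by line, gave 0 unadjusted calls in each of the first 3 comparisons.

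By size alone, with no test, 0 of 14 probes moved by at least 1.2-fold the same way in the 3 lines after premiR-197 (8.86% of all probes did). After LNA-miR-197 2 did, both lower (15.4% of all probes did): MUC5B, by log2 ratios of -1.88 (A549), -0.73 (PC14) and -0.45 (PC14CDDP), and the MUC4 3′ probe, by -0.31, -0.28 and -1.37. Only 1 of the 6 arrays behind the MUC5B ratios was well above background, and the MUC4 ratio of A549 lies below background. In LNA-miR-NC against AllStar-NC 1 did (9.03% of all probes did), MUC5AC A_33_P3216568, which was lower by log2 ratios of -1.38, -0.36 and -0.68, with 0 of the 3 LNA-miR-NC arrays well above background.

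MUC1 came nearest to a transfection effect. On A_23_P137856 the log2 ratio of LNA-miR-197 to LNA-miR-NC reached -0.59 for A549, -0.21 for PC14 and -0.90 for PC14CDDP, which gives a mean of -0.57 (SE 0.18, adjusted p = 0.092). The arrays after LNA-miR-197 were the lowest of the 4 in every line. With only probes well above background on all 12 arrays in the test, the adjusted p was 0.0487, and with AllStar-NC as the control it was 0.0196, at a mean log2 difference of -0.91. After premiR-197, the opposite intervention, MUC1 was also lower than its control in each line, by log2 ratios of -0.37, -0.13 and -0.76 (mean -0.42, adjusted p = 0.317). The other MUC1 probe, A_33_P3332215, had a mean log2 ratio of -0.09 after LNA-miR-197 (SE 0.19, adjusted p = 0.793). With AllStar-NC as the control it was also lower in each line, by log2 ratios of -0.45, -0.35 and -0.60 (mean -0.47). LNA-miR-NC was itself lower than AllStar-NC in each line on both probes. The means were -0.35 on A_23_P137856 and -0.38 on A_33_P3332215 (limma, adjusted p = 0.461 and 0.435). The values with AllStar-NC as the control include this difference between the controls.

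CEACAM1 after premiR-197 had log2 ratios of -0.43 (A549), 0.19 (PC14) and 0.46 (PC14CDDP), with a mean of 0.07 (SE 0.34, adjusted p = 0.946). MUC5AC on A_24_P917886 had -0.90 in A549 after LNA-miR-197 against 0.02 and 0.06 in PC14 and PC14CDDP. On A_33_P3216568 MUC5AC was higher after LNA-miR-197, by log2 ratios of 1.02 (A549), 0.20 (PC14) and 0.79 (PC14CDDP). The mean was 0.67 (SE 0.23, limma adjusted p = 0.106), with 3 of the 6 arrays well above background. The MUC4 3′ probe had a mean of -0.65 after LNA-miR-197 (SE 0.24, adjusted p = 0.127), which was -0.30 without PC14CDDP. The repeat probes of MUC4 ranged from -0.25 to 0.56 over the same 3 lines.

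**Figure D3:**
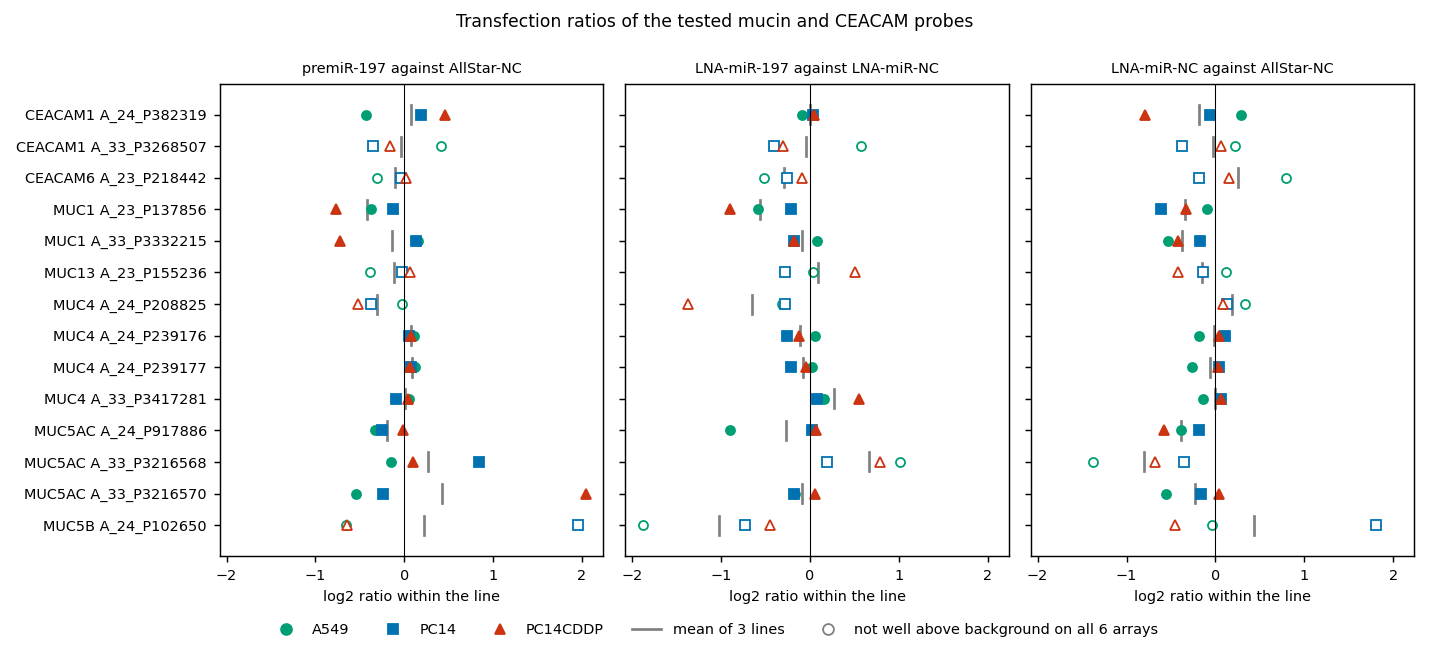
Log2 ratio within each line of the 14 tested mucin and CEACAM probes, in the 3 transfection comparisons, with a symbol for each line and a grey bar for the mean of the 3 lines. Open symbols belong to probes that were not well above background on all 6 arrays of the comparison. The MUC1 probe A_23_P137856 lies below 0 in the 3 lines after LNA-miR-197, and MUC5AC A_33_P3216570 lies at 2.04 in PC14CDDP after premiR-197.

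The enzymes that attach and extend the O-linked sugars of mucins were next compared between lines. Of 20 such genes tested, 14 were higher and 2 lower in A549 than in PC14, with a median log2 difference of 0.94 (67.4% of all probes were called, with a median of 0.06), and 15 were higher and 2 lower in A549 than in PC14CDDP, with a median of 1.38 (70% of all probes, with a median of 0.02). GCNT3, which builds the core 2 and core 4 branches of mucin sugars, was at least 201-fold higher in A549 than in PC14. B3GNT3, which extends core 1 chains, was higher by 6.21 on the log2 scale (SE 0.12, adjusted p = 5.38e-09). Of the transferases that add the first sugar, GALNT5 was at least 7.92-fold higher. GALNT13 was at least 2.88-fold higher, with 3 of 4 A549 arrays measured, and GALNT3 and GALNT11 were the lower ones. GALNT5 and GALNT13 passed the filter only through arrays of A549, GALNT3 only through PC14, and GCNT3 without an array of PC14. Their calls against a line without such arrays add no support beyond detection, and the medians, which include them, are not read as a shift. The bounds of listed genes were not checked under normexp background correction. For MUC13, CEACAM6, MUC5B and the MUC4 3′ probe it gave smaller differences of A549 from PC14 than the bound.

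Between PC14CDDP and PC14 the same list split. Of the 20 genes, 6 were called higher and 5 lower, where 48.8% of all probes were called, and GALNT5 and GALNT13 among the 6 were below background in both lines. GALNT14 was lower in PC14CDDP by a log2 difference of -3.85 (SE 0.18, adjusted p = 1.68e-06) and GALNT6 higher by 1.91 (SE 0.20, adjusted p = 0.000117). GALNT3 was above background in PC14 alone, at least 1.25-fold higher than in PC14CDDP. After LNA-miR-197 against LNA-miR-NC, 2 of the 20 fell, where 7.91% of all probes were called: GALNT10 (log2 difference -0.66, adjusted p = 0.0356) and GALNT2 (-0.59, adjusted p = 0.0323), and 0 rose.

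Of 14 genes of airway secretory cells tested, 6 were lower and 1 higher in PC14CDDP than in PC14, where 48.8% of all probes were called. In A549 against PC14, 9 were higher and 1 lower, where 67.4% of all probes were called. FOXA2, a transcription factor of airway epithelium, was lower in PC14CDDP by a log2 difference of -3.08 (SE 0.17, adjusted p = 3.83e-06). AGR2, the disulfide isomerase needed to fold gel-forming mucins, was at least 3.31-fold lower, and FOXA1 (-0.83) and TFF3 (-0.93), a trefoil peptide secreted with mucins, were lower too. In A549 AGR2 was higher than in PC14 by 7.52 (SE 0.52, adjusted p = 4.33e-06), FOXA1 by 3.39 and TFF1 by 2.02, and SLPI, a secreted protease inhibitor, was at least 22.1-fold higher. SLPI passed the filter only through arrays of A549, and the bounds of AGR2 and SLPI were not checked under normexp background correction either.

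**Figure D4:**
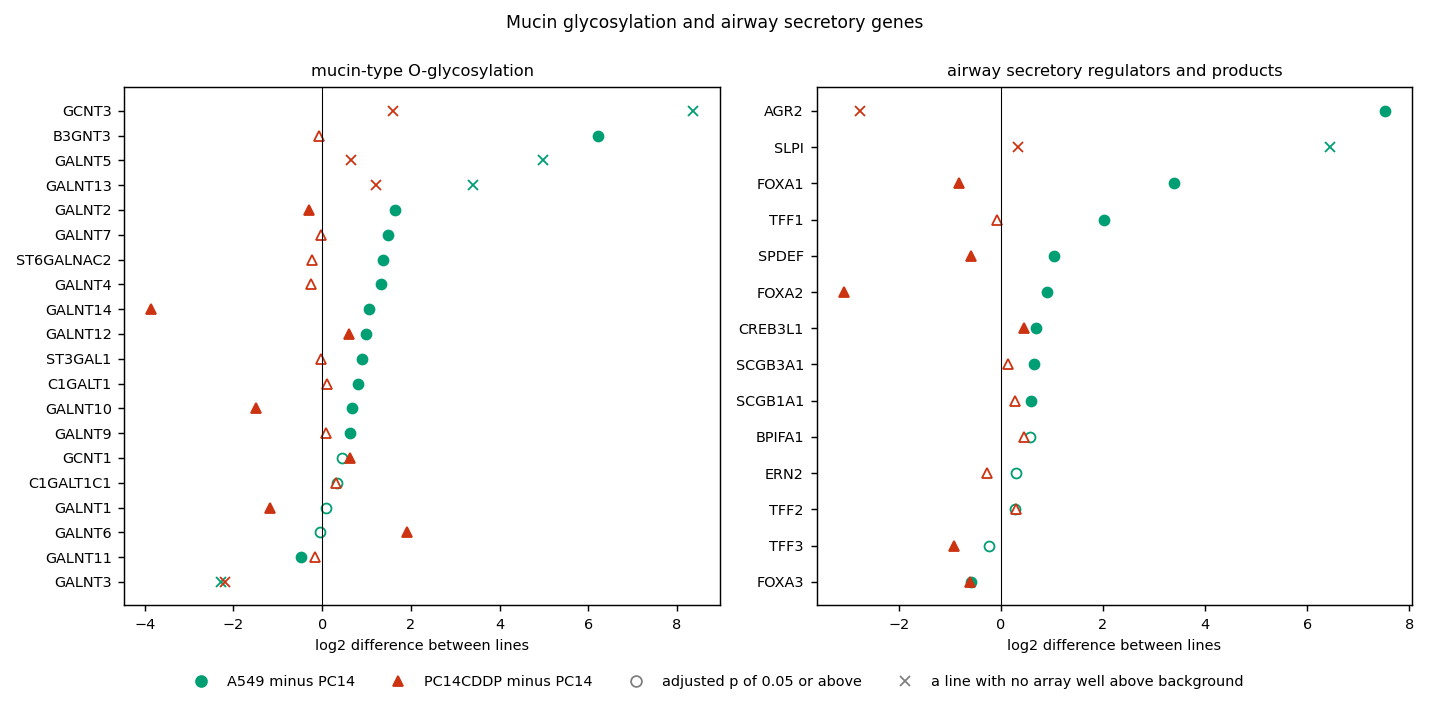
Fitted log2 difference between lines of the tested genes of the mucin-type O-glycosylation and airway secretory lists, with circles for A549 minus PC14 and triangles for PC14CDDP minus PC14. Open symbols did not reach an adjusted p under 0.05, and crosses mark comparisons in which a line had no array well above background, where the fitted value is no measured fold. GCNT3, B3GNT3, AGR2 and SLPI lie farthest to the right, and GALNT14, FOXA2 and AGR2 farthest to the left in PC14CDDP.

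In the remaining lists the calls are to be read beside the 67.4% of all probes called in A549 against PC14, the 48.8% in PC14CDDP against PC14 and the 7.91% after LNA-miR-197. Of 8 other mucin genes tested, 3 were higher and 2 lower in A549 than in PC14, among them MUC2 (0.89, adjusted p = 0.000143) and MUCL1 (-1.16, adjusted p = 3.03e-05), and 1, OVGP1, was lower in PC14CDDP than in PC14 (-1.66, adjusted p = 0.00424). Of 6 other CEACAM and pregnancy-specific glycoprotein (PSG) genes tested, 4 were higher and 0 lower in A549 than in PC14, namely CEACAM4, which was below background on the 4 arrays of PC14, CEACAM7, CEACAM19 (0.80) and CEACAM20 (0.48). Of 13 binding partners and sheddases, 2 were higher and 3 lower in PC14CDDP than in PC14. LGALS3, the galectin that binds MUC1 sugars, was lower by a log2 difference of -2.67 (SE 0.17, adjusted p = 1.03e-05), and ADAM9, a surface protease, by a log2 difference of -0.88. MMP14, a membrane metalloprotease that sheds MUC1, was lower in A549, with a log2 difference from PC14 of -8.43 (SE 0.35, adjusted p = 2.41e-07). ADAM10, which cleaves surface proteins, rose by 0.63 on the log2 scale with LNA-miR-197 over its control (adjusted p = 0.0424).

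Markers of other cell types also moved with the line. Of 5 leukocyte markers 4 were tested and 3 were higher in A549 than in PC14, and their summed signal, in units of each array's upper quartile, spanned 2.86 to 3.36 in A549, 0.257 to 0.404 in PC14 and 0.276 to 0.804 in PC14CDDP. Most of the A549 sum came from CD14, at a mean log2 level of 1.40 relative to the 75th percentile, beside -1.77 for ITGAM and -2.54 for PTPRC. Of 4 squamous markers 2 were tested, and KRT6A, a keratin of squamous epithelium, was higher in PC14CDDP than in PC14 by 3.37 on the log2 scale (adjusted p = 0.000554) and well above background on 0 arrays of A549. The squamous sums were 0.0540 to 0.0732 in A549, 0.165 to 0.217 in PC14 and 0.607 to 3.20 in PC14CDDP. Of 3 endothelial markers 1 was higher and 1 lower in A549 than in PC14, with sums of 0.229 to 0.330 in A549, 0.611 to 0.962 in PC14 and 0.215 to 0.294 in PC14CDDP, and PECAM1 was well above background on 4 arrays of PC14 and 0 of PC14CDDP. Of 4 fibroblast markers only COL1A1 was above background on any array. The part of these differences in the mucin and CEACAM values was not tested.

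By likeness over the 12 arrays, after each line's mean was taken off, the probes nearest to MUC1 A_23_P137856 among 24603 included those of TMEM198B and ALDH4A1, each with Pearson's r of 0.96. Those nearest to CEACAM1 A_24_P382319 were BCL2 (r = 0.93) and 2 transcripts without a gene symbol, and those nearest to MUC5AC A_24_P917886 included ALDH3B1 (0.94) and DCBLD2 (0.93). These are descriptions over arrays that share their slide column by transfection. Each r is among the highest of a search over 24603 probes on 12 arrays. How high r reaches by chance in such a search was not tested, so no link between these genes is read from it. The overlapping MUC4 repeat probes A_24_P239176 and A_24_P239177 followed each other with r = 0.93, while the third repeat probe, A_33_P3417281, followed A_24_P239176 with r = -0.25.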

How the data were processed

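The deposited scanner files, made by the authors in Agilent Feature Extraction 10.7.3.1, hold intensity values of each spot: a processed signal (background-subtracted and detrended within the array), mean and background signals, and flags. A deposited table of intensity values equals the processed signal on all 62976 spots of each array. No normalization between arrays is given in the sources used here, and the methods name Student's t-test in general. All columns were matched to a sample (0 unmatched).

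Control spots and outlier spots were left out, spots of a probe were averaged, and each log2 processed signal was set against the array's 75th percentile, over 50493 probes (106 with a missing value were dropped). No spot was saturated (0). Transfection and line were terms of a linear model over the 12 arrays (limma 3.58.1, R 4.3.3), with eBayes and Benjamini-Hochberg adjustment over 33712 probes, and the model was tested on simulated data. Where all arrays of a line lay below background, a bound stands for the fold if most arrays of the brighter line were measured. Such a probe could pass the filter only through the other lines. The line pairs treated and control arrays. Members and gene lists were chosen with earlier results of these data known, so they are no independent support. All members were named, and of each other list up to 4 genes per line comparison and up to 3 per transfection comparison with the largest called difference, from the brightest probe of each gene. Alternatives were quantile normalization, normexp (offset 50), the deposited table, other filters, 1 probe per gene, other terms in the fit, a trend and robust prior, each transfection or line left out, exact permutation and the methods' t-test. qRT-PCR, western blots, flow cytometry and miRNA arrays of the study were not analysed here. The sequence of MUC5AC probe A_24_P917886 and 1 gene near MUC1 by likeness are not reported here.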

Additional observations from a re-analysis of the deposited data

Results flagged for a closer look

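In 3 sets of 4 arrays of a line, a single array stood farther from the others than Dixon's 95% critical value of 0.829 allows, of 37 sets examined, and chance flags about 1 in 20 such groups. The 4 arrays differ in transfection, so the array that stands apart is also the only one of its transfection in that line. MUC5AC A_33_P3216570 in PC14CDDP after premiR-197 was at 94.3 units with 20.4 to 22.3 on the other arrays (gap over range 0.951). MUC4 A_33_P3417281 in PC14CDDP after LNA-miR-197 was at 918.6 units with 617.0 to 715.2 on the others (0.90), and MUC5AC A_33_P3216568 in PC14CDDP after LNA-miR-NC was at 9.98 units with 14.97 to 17.99 on the others (0.862). The other MUC5AC probe in the same array, A_24_P917886, was at 65.6 units after premiR-197 and at 59.0 after AllStar-NC in PC14CDDP. All 3 of these arrays belong to PC14CDDP.

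In 3 of 25 sets of a probe and a transfection comparison, each measured on all 6 arrays, the probe moved by at least 1.2-fold up in 1 line and at least 1.2-fold down in another, and these differences were not tested since each line has 1 array per transfection. After premiR-197, MUC5AC A_33_P3216570 was up in PC14CDDP and down in A549, with log2 ratios 2.58 apart, and CEACAM1 A_24_P382319 was up in PC14CDDP and down in A549, with log2 ratios 0.89 apart. In LNA-miR-NC against AllStar-NC, CEACAM1 was up in A549 and down in PC14CDDP, with log2 ratios 1.09 apart.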

How the results depend on the processing

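Of the line differences called, 293 of the alternative values kept direction and call and 10 lost the call: 7 of CEACAM6 in PC14CDDP against PC14 and 3 of CEACAM1. Of the 293, 25 came from the deposited table, which equals the processed signal and so could not give another result. Called counts fell where fewer probes were tested. With probes well above background on all 12 arrays (8 member probes), 4, 4 and 6 were called in PC14CDDP against PC14, A549 against PC14 and A549 against PC14CDDP, in place of 7, 8 and 10, and with 1 probe per gene (7 probes) 3, 5 and 6. With each transfection left out the 3 counts ranged from 5 to 9, 8 to 9 and 9 to 11, and by exact permutation, 4 arrays against 4 (smallest p 0.0286), 7, 8 and 9 probes had an unadjusted p under 0.05. For LNA-miR-197 against LNA-miR-NC 1 probe, MUC1, was called with probes well above background on all 12 arrays and 1, MUC1, with AllStar-NC as the control. The probes that moved the same way in 3 lines after LNA-miR-197 (2) were 0 at 1.5-fold, 0 under normexp and 1 under quantile normalization, and in LNA-miR-NC against AllStar-NC (1) 0 at 1.5-fold and 0 under normexp. Some uncalled differences changed sign: CEACAM1 after LNA-miR-197 was 0.0076 under quantile normalization, 0.022 under normexp and -0.025 to 0.042 with a line left out. CEACAM1 in LNA-miR-NC against AllStar-NC was -0.43 to 0.12 with a line left out, and after premiR-197 it was -0.015 under normexp and -0.12 to 0.32 with a line left out. MUC5AC A_33_P3216568 after LNA-miR-197 was 0.67 against LNA-miR-NC but -0.14 with AllStar-NC as the control, which is no small change. After premiR-197 it was -0.022 under normexp and -0.025 to 0.47 with a line left out. Normexp, with its offset, gave smaller differences for dim probes. Over all probes, premiR-197 calls were 17 (4 higher), 74 under quantile normalization and 633 (231 higher) under normexp, those of the difference of effects 16 (5 higher) and 870 (358 higher) under normexp, of LNA-miR-197 2666 and 4324 under normexp, and of LNA-miR-NC against AllStar-NC 162 (112 higher) and 218 (178 higher). No paired analysis by replicate number was added, since the cell line is the block of each transfection fit; without it 0 members were called in each. Signal near background limits CEACAM5, MUC16, MUC20 and MUC5B, and 3 lines limit the transfection comparisons. The causes of these changes were not tested.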
